A study of Mus musculus with 2 samples.

Results

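Endothelial cells (ECs) with high levels of interferon-induced genes were examined in tumors of control mice and of mice that lost *Dnmt1*, the maintenance DNA methyltransferase, in their ECs. These cells are called interferon-high ECs below. They were chosen by their own counts. A cell needed at least 500 detected genes, at most 10% mitochondrial UMIs, at least 1 UMI of the endothelial genes *Cdh5* or *Pecam1*, and 0 UMIs of *Ptprc* (leukocytes), *Epcam* (epithelium), *Cspg4* and *Myh11* (mural cells). Its summed UMIs (unique molecular identifiers, counted molecules) of *Ifit1*, *Ifit2*, *Ifit3*, *Isg15*, *Rsad2*, *Usp18*, *Oasl2*, *Ifi44*, *Cmpk2* and *Irf7* had to reach 1500 counts per 1000000 UMIs of the cell (CPM), with at least 4 of these 10 genes detected. Fewer than 3 of the aerocyte genes *Ednrb*, *Fibin*, *Car4*, *Apln* and *Rgs6* were allowed. The rule found 485 cells in the control library and 169 in the Dnmt1iECKO library, or 654 of 18823 barcodes in all, among 4922 control and 2077 Dnmt1iECKO ECs.

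Both groups were female mice of 8 to 10 weeks bearing tumors of YUMMER1.7, a mouse melanoma line with a high mutational burden. The control label gives C57BL/6 as genotype, and the paper's methods describe controls that carry VEcad-CreERT2 and the ZsGreen reporter. The Dnmt1iECKO label gives Cdh5CreERT2;Dnmt1fl/fl;ZsGreenlsl/lsl, in which tamoxifen activates a Cre driven by the VE-cadherin promoter, so deletion is aimed at all ECs and is not particular to the tumor. Each library was made from the pooled tumors of 3 mice. The labels place the tumors under the skin, while the paper describes lung tumors seeded through the tail vein, and both libraries held cells with the aerocyte and alveolar genes of the lung. Live CD31+CD45- cells were sorted and sequenced with the 10x Genomics GEM-X 3′ kit, 1 library per condition. With 1 library per condition there were no replicates, so no difference below has a test, and all 95% intervals cover counting error only.

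Type I interferons, the IFNα family and IFNβ, bind the receptor chains IFNAR1 and IFNAR2 on almost every cell. The kinases JAK1 and TYK2 then pass the signal on to a complex that holds IRF9 and binds interferon-stimulated response elements (ISREs) next to the induced genes. IFNγ, made mainly by T and NK cells, signals through its own receptor to another DNA element, GAS. Many genes respond to both. In ECs these programs include antiviral proteins, antigen presentation, and chemokines and adhesion molecules that recruit lymphocytes.

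The ISRE letters can be seen in the promoters of genes that chose these cells and of genes that stood out in them. The motif GAAANNGAAA was searched on both strands of the 250 bases before the RefSeq start of each gene (GRCm38.p6), and matches may overlap. It was found at 936 of 27025 genes, or 3.46%. Of the 9 rule genes with a promoter entry, 4 held it, namely *Isg15*, *Ifit1*, *Ifit3* and *Rsad2*. These 4 are shown because they chose the cells, and *Cxcl10* and *Gbp5* because the 2 libraries differed in them. Each sequence is read 5′ to 3′ on the strand of the gene, with the matches in capitals, and a match on the other strand appears as the reverse complement of the motif.

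Isg15, chr4:156200819-156201068, minus strand: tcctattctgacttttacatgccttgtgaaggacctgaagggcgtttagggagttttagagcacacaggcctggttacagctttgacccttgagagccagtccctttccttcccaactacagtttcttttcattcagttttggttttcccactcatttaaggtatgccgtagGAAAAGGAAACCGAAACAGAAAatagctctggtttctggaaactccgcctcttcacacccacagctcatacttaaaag

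Ifit1, chr19:34640639-34640888, plus strand: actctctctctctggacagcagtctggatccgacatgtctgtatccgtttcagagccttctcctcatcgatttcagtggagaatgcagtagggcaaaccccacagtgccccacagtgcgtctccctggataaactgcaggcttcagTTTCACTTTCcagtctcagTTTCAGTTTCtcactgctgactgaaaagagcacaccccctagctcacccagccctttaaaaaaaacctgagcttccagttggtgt

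Ifit3, chr19:34583279-34583528, plus strand: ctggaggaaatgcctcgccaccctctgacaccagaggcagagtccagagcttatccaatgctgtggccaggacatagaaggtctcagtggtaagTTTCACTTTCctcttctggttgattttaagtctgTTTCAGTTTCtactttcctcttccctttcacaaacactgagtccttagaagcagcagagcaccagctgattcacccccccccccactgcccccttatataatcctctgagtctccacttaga

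Rsad2, chr12:26456453-26456702, minus strand: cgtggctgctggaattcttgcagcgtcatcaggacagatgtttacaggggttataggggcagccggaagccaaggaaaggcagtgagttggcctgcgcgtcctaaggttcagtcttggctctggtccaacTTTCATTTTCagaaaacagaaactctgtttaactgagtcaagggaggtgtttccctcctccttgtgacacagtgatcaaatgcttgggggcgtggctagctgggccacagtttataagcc

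Cxcl10, chr5:92348890-92349139, minus strand: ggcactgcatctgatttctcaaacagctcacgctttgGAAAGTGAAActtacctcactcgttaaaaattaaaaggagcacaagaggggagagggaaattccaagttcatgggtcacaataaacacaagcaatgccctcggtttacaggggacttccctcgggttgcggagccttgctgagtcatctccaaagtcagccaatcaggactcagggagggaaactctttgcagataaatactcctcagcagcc

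Gbp5, chr3:142496684-142496933, plus strand: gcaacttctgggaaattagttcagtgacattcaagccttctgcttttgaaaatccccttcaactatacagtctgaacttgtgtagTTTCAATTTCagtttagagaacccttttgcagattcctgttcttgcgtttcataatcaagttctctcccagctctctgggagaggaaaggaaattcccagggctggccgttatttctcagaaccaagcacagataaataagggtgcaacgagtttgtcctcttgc

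The 3 matches of *Isg15* end 68, 62 and 56 bases before its start, and each overlaps the next. Those of *Ifit1* end 94 and 75 bases before the start, those of *Ifit3* 146 and 112, and the single matches of *Rsad2*, *Cxcl10* and *Gbp5* 110, 203 and 155. *Ifit2*, *Ifi44*, *Cmpk2*, *Irf7* and *Oasl2* had no match in these windows, and *Usp18* had no entry. A match is a description of the letters and not a shown binding site.

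The score that chose the cells had no gap at the threshold. Its median was 2398 CPM in the control and 2366 in the Dnmt1iECKO interferon-high ECs, against 347 and 312 in the other ECs. Within 250 CPM of the threshold, 72 control and 36 Dnmt1iECKO cells lay inside and 98 and 48 lay outside among ECs with fewer than 3 aerocyte genes. The last cells outside had scores of 1494 and 1485, and the first inside 1507 and 1514. The interferon-high ECs are therefore a range of a continuous score and not a separate cell type. A further 94 and 41 ECs reached the score with fewer than 4 rule genes, at median depths of 2447 and 2224 UMIs, and were left out. Depth was similar otherwise, with medians of 10675 and 10846 UMIs per interferon-high cell against 9553 and 9692.5 in the other ECs. No interferon-high EC was among the cells with the highest doublet scores, while 29 barcodes occurred in both libraries.

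**Figure D1:**
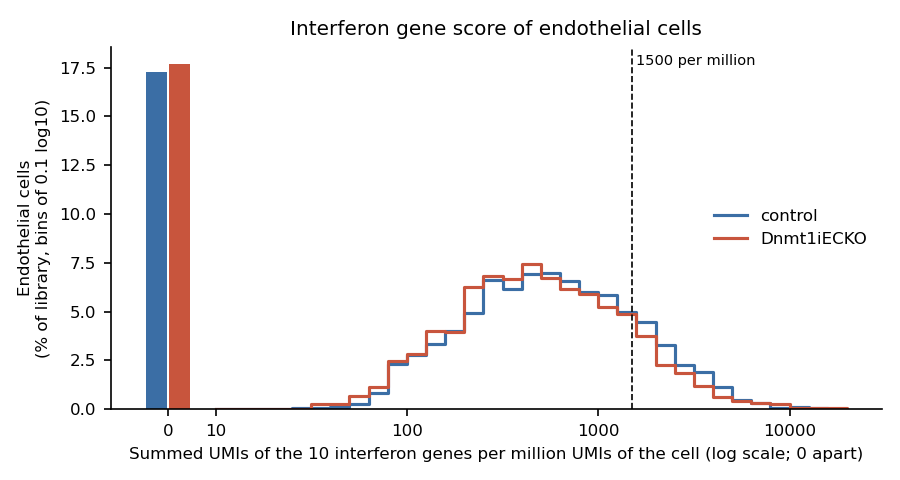
Distribution of the interferon gene score (summed UMIs of the 10 rule genes as CPM of the cell, horizontal axis) over the ECs of each library, with the dashed line at the threshold of 1500. The curves decline through the threshold without a gap, and the median scores of the cells inside were 2398 (control) and 2366 (Dnmt1iECKO).

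Interferon-high ECs were 9.85% of control ECs (95% interval 9.03 to 10.7) and 8.14% of Dnmt1iECKO ECs (7.0 to 9.40). The log2 ratio of the Dnmt1iECKO over the control share was −0.28 (−0.54 to −0.02). Among ECs with fewer than 3 aerocyte genes, the only ones the rule could take, the shares were 15.1% and 11% and the log2 ratio −0.46 (−0.72 to −0.21). When each cell was thinned to 2000 UMIs before scoring, the shares were 4.62% (211 of 4564 cells) and 4.20% (80 of 1904), and the log2 ratio was −0.14 with an interval from −0.53 to 0.24. At this equal depth a difference in the share was not detectable. The score was also met by 159 of 1715 control and 35 of 539 Dnmt1iECKO ECs with at least 3 aerocyte genes, or 9.27% and 6.49%, which the rule set aside.

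The 10 rule genes chose the cells, so their excess over other ECs is a description. Levels below are UMIs summed over a group of cells and scaled to CPM of that group. *Isg15*, a ubiquitin-like protein that is attached to other proteins after interferon (chr4:156199424-156200818), had 893 CPM in control and 772 in Dnmt1iECKO interferon-high ECs, against 190 and 175 in other ECs. *Ifit1*, which binds foreign RNA caps (chr19:34640871-34650009), had 663 and 511 CPM against 81.3 and 57.8. *Rsad2*, the antiviral enzyme viperin (chr12:26442746-26456452), had 79.2 and 137 CPM against 17.2 and 17.8. *Isg15* was found in 476 of 485 and 164 of 169 of these cells, whereas *Rsad2* was found in only 131 and 56. The median cell had 6 of the 10 genes in the control and 7 in the Dnmt1iECKO library.

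Between libraries the rule genes did not all differ in the same direction. *Ifit1* had a lower level in Dnmt1iECKO interferon-high ECs, at a log2 ratio of −0.37 (−0.47 to −0.28), as had *Isg15*, at −0.21 (−0.29 to −0.13). *Ifit2*, which lies in the same *Ifit* cluster of chromosome 19, was higher, at 48.1 and 97.3 CPM and a log2 ratio of 1.02 (0.75 to 1.28), and *Rsad2* was higher by 0.79 (0.58 to 1.00). These excesses lay in part in single cells, since 1 Dnmt1iECKO cell held 17.2% of the *Ifit2* and 1 held 26.0% of the *Rsad2* UMIs. *Ifit2* was found in 60 Dnmt1iECKO cells, and without the top cell of each library its log2 ratio was 0.85. *Ifi44*, a GTP-binding-like interferon-induced protein, had 188 and 254 CPM (0.43, from 0.28 to 0.58). The summed score genes were nearly level, with 2812 and 2748 CPM and a log2 ratio of −0.03 (−0.08 to 0.01). Both libraries were cut at the same score of these genes, so the level sum is in part set by the rule. With the sum so held, the mixed directions of single rule genes are a description too. In the other ECs *Ifit1* was also lower (−0.49), whereas *Ifit2* differed by 0.19 and *Rsad2* by 0.05.

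**Figure D2:**
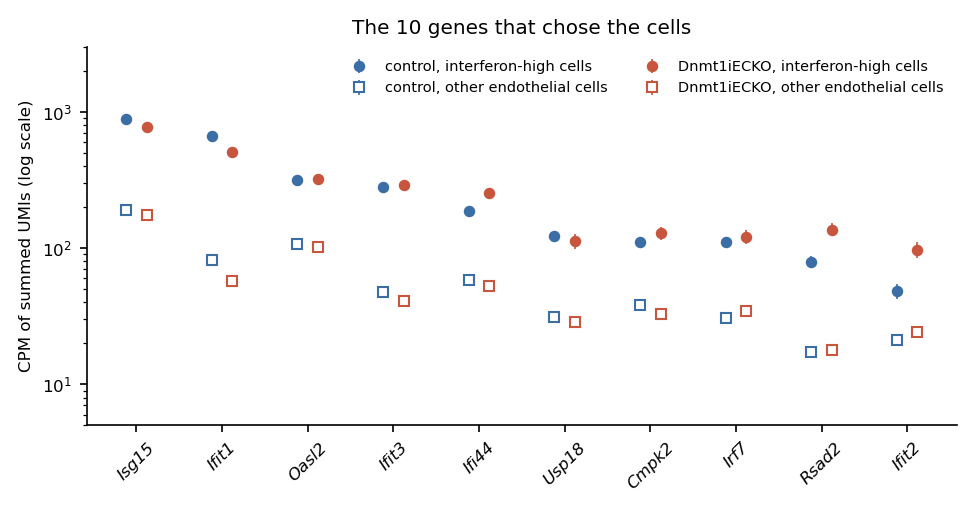
CPM (log axis) of the 10 rule genes in interferon-high and other ECs of the control and Dnmt1iECKO libraries, each point the summed UMIs of its cells with an exact Poisson 95% interval. *Ifit1* and *Isg15* were the highest in the interferon-high ECs of both libraries, and *Ifit2* and *Rsad2* were the lowest in the control, at 48.1 and 79.2 CPM.

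Outside the 10 rule genes, interferon-high ECs had more of most other interferon-induced genes. These values come from the cells that the score chose, so they describe the cells and test nothing. Of 11133 genes that reached 100 UMIs over all ECs of each library, 103 (0.925%) were at least 2-fold higher in interferon-high than in other ECs of both libraries, 10 of them the rule genes, and 287 (2.58%) were at least 2-fold lower. Of the remaining 93, 42 were in lists of interferon response and immune genes. The 10 leading genes were *Ifit3b*, *Oasl1*, *Gbp5*, *Daxx*, *Apol9b*, *Oas1a*, *Herc6*, *Slfn8*, *Gm4951* and *Apol9a*. *Ifit3b*, a near copy of *Ifit3* that may share its reads, had 93.6 and 77.9 CPM, at log2 ratios of 2.53 and 2.68 over other ECs. *Herc6*, the mouse ligase that attaches ISG15, had 671 and 552 CPM against 195 and 165. *Daxx*, a chromatin and cell death protein, was higher by 1.84 and 1.83, and *Oas1a*, a sensor of double-stranded RNA, by 1.77 and 1.82. *Apol9a* and *Apol9b* are close paralogs whose reads may be split between them. The promoter motif was found in 25 of the 67 genes of these 93 with an entry, or 37.3%, and in 9 of 219, or 4.11%, of the genes that were at least 2-fold lower.

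Antiviral effectors outside the rule were higher in these cells. Of 31 measured, 14 were at least 2-fold higher, against 0.925% of all genes. All 31 were above other ECs in both libraries, as were 20.4% of all genes. Their median log2 ratios were 1.00 and 1.09, beside −0.14 and −0.11 for all genes. *Parp14*, a mono-ADP-ribosyltransferase, had 694 and 666 CPM against 269 and 258 (1.37 in both). *Slfn5*, a Schlafen family protein, had 1576 and 1374 CPM against 869 and 799, and did not reach 2-fold. *Ifitm3*, which blocks viral fusion at membranes, had 3390 and 3569 CPM against 1967 and 2190. *Mx1* and *Mx2* were not analysed here, and *Ifi44l* had 0 UMIs.

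Of 11 sensors of foreign nucleic acids, 5 were at least 2-fold higher, against 0.925% of all genes. These were *Ifih1* (the RNA helicase MDA5), *Dhx58* (its regulator LGP2), *Eif2ak2* (the kinase PKR), *Zbp1* (a Z-nucleic acid sensor) and *Cgas* (the DNA sensor cGAS). *Ifih1* had 313 and 268 CPM against 118 and 107, and *Zbp1* had 102 and 156 against 36.7 and 46.0. The endosomal sensors *Tlr7* and *Tlr9* and the nuclease *Trex1* had 0 UMIs in these cells.

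Genes of the pathway itself differed less. Of 17 measured, *Irf8* and the feedback inhibitor *Socs1* were at least 2-fold higher, against 0.925% of all genes. Their log2 ratios were 1.60 and 1.36 and 1.42 and 1.48. *Stat2* had log2 ratios of 0.58 and 0.88 and *Irf9* of 0.64 and 0.64. The receptor chain *Ifnar1* was near the other ECs, at 62.5 and 80.1 CPM against 76.6 and 86.0, as was *Ifnar2*, at 228 and 222 against 184 and 200. *Irf1*, a transcription factor downstream of IFNγ, had 2104 and 1642 CPM against 998 and 975.

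The chosen cells were not marked by type I genes alone. Of 20 measured effectors best known from the IFNγ response, 16 were at least 2-fold higher, against 0.925% of all genes, with medians of 1.22 and 1.49. *Iigp1*, an immunity-related GTPase, had 2911 and 2589 CPM against 815 and 879. *Gbp5*, a guanylate-binding protein that acts on vacuolar pathogens (chr3:142493978-142522344), had 435 and 677 CPM against 117 and 140. Of the 12 genes of this list with a promoter entry, 10 held the ISRE letters and 6 the GAS letters TTCNNNGAA, beside 3.46% and 8.13% of all genes. The label of a type I interferon state therefore rests on the genes used to score the cells, and type I and IFNγ responses cannot be told apart from these levels.

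Interferon transcripts were nearly absent from these cells. *Ifnb1* had 0 UMIs in all ECs of both libraries, which allows up to 0.0610% of control and 0.144% of Dnmt1iECKO ECs to hold a UMI of it. Over all cells of good quality it had 34 UMIs in 9 control cells and 47 UMIs in 15 Dnmt1iECKO cells, 28 and 47 of them in *Ptprc*-positive cells. *Ifng* had 495 and 1196 UMIs in 109 and 344 cells, nearly all *Ptprc*-positive, and 0 UMIs in interferon-high ECs. The IFNα genes had 0 UMIs apart from 1 of *Ifna7* in a Dnmt1iECKO EC outside the interferon-high cells. Cells were sorted as CD45-, yet 664 control and 2419 Dnmt1iECKO cells held *Ptprc* UMIs and no *Cdh5* or *Pecam1*, so these counts do not measure the interferon made in the tumor.

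MHC class I genes, which load and present peptides to CD8 T cells, were above other ECs in both libraries for all 19 measured, against 20.4% of all genes. Their medians were 0.34 and 0.49, but only *Nlrc5*, their transactivator, was 2-fold higher (1.06 and 1.06). The heavy chain *H2-K1* had 2092 and 2100 CPM against 1724 and 1729. MHC class II genes had medians of 0.76 and 0.87, with 0 of 6 past 2-fold. Their medians were 0.38 and 0.64 against other ECs with fewer than 3 aerocyte genes. *Cd74*, the invariant chain, had 2738 and 3477 CPM against 1482 and 1738. *Cd274*, which encodes the checkpoint ligand PD-L1 (chr19:29367455-29388095), had 197 and 318 CPM against 86.8 and 84.6. *Cxcl10* and *Cxcl9*, ligands of CXCR3, a chemokine receptor on T cells, were both over 2-fold higher, by 1.57 and 2.33 and by 1.32 and 1.82. Against other ECs with fewer than 3 aerocyte genes, *Cxcl10* stayed past 2-fold (1.44 and 2.03), while *Cxcl9* did not in the control (0.92 and 1.28). Of 9 other chemokines, 0 were 2-fold higher and 2 were 2-fold lower, where 2.58% of all genes were lower. In both libraries 6 of the 9 were below other ECs, as were 53.2% of all genes. Their medians were −0.93 and −0.66, or −0.26 and −0.48 against other ECs with fewer than 3 aerocyte genes. Of 11 adhesion genes, 0 were 2-fold higher.

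Not all that moved with the score was an interferon gene. Immediate early genes, which tissue dissociation is known to induce, had medians of 0.53 and 0.27, with 0 of 12 past 2-fold. Their summed level was 21090 and 19527 CPM in interferon-high against 13058 and 15108 in other ECs, and the medians over cells were 20604 and 18366 against 6217 and 7256. NF-κB targets had medians of 0.56 and 0.45, with 0 of 15 past 2-fold. Their medians were 0.28 and 0.21 against other ECs with fewer than 3 aerocyte genes, and those of the immediate early genes 0.69 and 0.46. The part of dissociation in the scores was not tested. Of 8 cell cycle genes, 8 were below other ECs in both libraries and 0 by 2-fold, where 53.2% of all genes were below. Pan-endothelial genes were close to other ECs except *Kdr*, the VEGF receptor 2, which had 309 and 310 CPM against 904 and 729. Aerocytes, which the rule set aside, express much *Kdr*, and against other ECs with fewer than 3 aerocyte genes its log2 ratios were −0.02 and −0.04. Against these cells 87 genes were 2-fold higher, 79 of them shared with the 103.

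RNA of other cell types differed by type in interferon-high ECs. Summed T and NK cell markers had 2.77 and 4.84 CPM, B cell markers 1.73 and 4.84, and melanoma markers 0.519 and 0.880. Myeloid markers had 27.9 and 90.2 CPM, against 49.2 and 94.8 in other ECs. Alveolar markers had 393 and 257 CPM against 650 and 446, and *Hopx* alone gave 215 and 151 of these. Fibroblast markers had 499 and 211 CPM against 356 and 841, with a median over cells of 0 in both. Mesothelial markers had 54.3 and 33.4 CPM against 27.0 and 33.7. Of 4 markers of plasmacytoid dendritic cells, a main source of IFNα, *Siglech*, *Ccr9* and *Klk1* had 0 UMIs. The other marker, *Bst2*, encodes tetherin, which interferon induces in many cell types, and had 749 and 672 CPM against 559 and 492. The part of RNA from other cells in the levels was not tested.

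**Figure D3:**
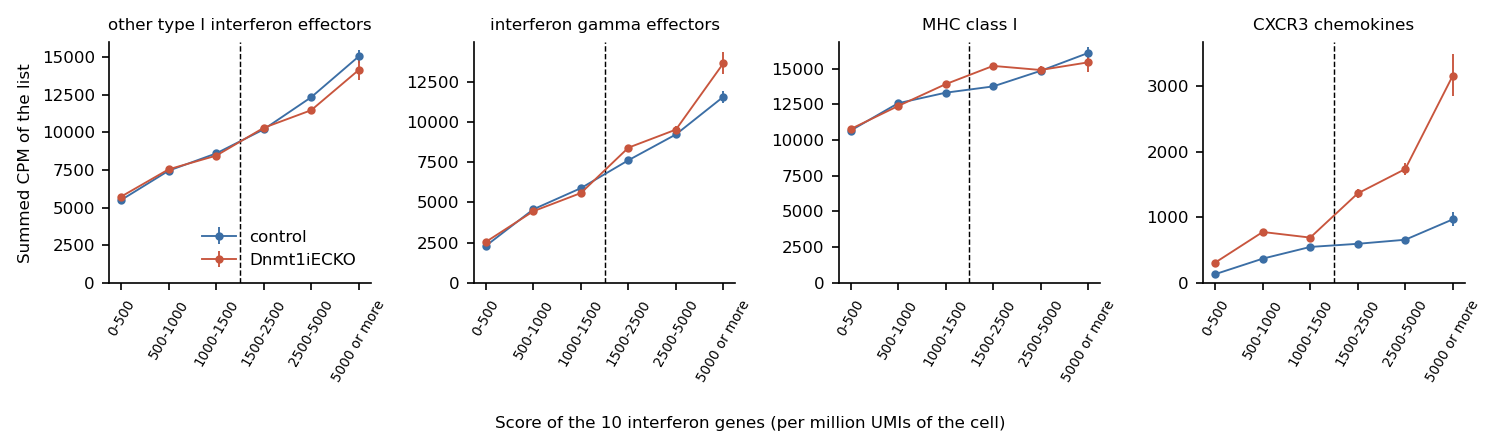
Summed CPM of gene lists that did not enter the score (vertical axes) in 6 bands of the interferon gene score (horizontal axis), for ECs with fewer than 3 aerocyte genes, with control and Dnmt1iECKO as separate lines and exact Poisson 95% intervals. The dashed line marks the threshold of 1500, and the levels of IFNγ effectors were higher in each band than in the one before, reaching 11562 CPM in the control and 13644 in 17 Dnmt1iECKO cells.

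Across bands of the score the other interferon genes followed it from the lowest cells on. In control ECs with scores under 500, other type I effectors summed to 5515 CPM, and in bands from 500, 1000, 1500, 2500 and 5000 they summed to 7463, 8610, 10207, 12345 and 15055. The Dnmt1iECKO values were 5740, 7553, 8461, 10310, 11481 and 14154. The libraries thus lay close together at a given score. IFNγ effectors ran from 2305 to 9221 CPM in the control and from 2550 to 9521 in the Dnmt1iECKO library between the lowest band and that from 2500 to 5000. The CXCR3 ligands stood apart between libraries in every band. They had 134, 370, 549, 597, 658 and 969 CPM in the control and 311, 777, 691, 1365, 1736 and 3159 in the Dnmt1iECKO library. The highest band held 35 control and only 17 Dnmt1iECKO cells, and without it the highest values were 658 and 1736.

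Dnmt1iECKO and control cells were then compared inside the interferon-high ECs. *Dnmt1* itself (chr9:20907209-20959888) had 229 UMIs in control and 65 in Dnmt1iECKO interferon-high ECs, or 39.6 and 28.6 CPM, a log2 ratio of −0.47 (−0.89 to −0.07). In the other ECs it had 49.8 and 26.3 CPM (−0.92). Its UMIs were found in 155 of 485 and 42 of 169 interferon-high cells. Reads from the 3′ end may lie outside the deleted exons, in which case they check little of the deletion. Of 7888 genes that reached 100 UMIs when the libraries were added, 100 (1.27%) were at least 2-fold higher and 60 (0.761%) at least 2-fold lower with an interval beyond 0. Of the 100, 27 had at least 50% of their UMIs in 1 cell and 58 stayed past 2-fold without the top cell of each library. The median of all genes was −0.01.

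*Cxcl9* (chr5:92321347-92328079) had 114 CPM in control and 479 in Dnmt1iECKO interferon-high ECs, a log2 ratio of 2.08 (1.94 to 2.22). In the other ECs the levels were 45.4 and 136 CPM (1.58), so the excess was present in both groups of cells. The chemokine came from few cells, 33 of 485 and 24 of 169, and 1 Dnmt1iECKO cell held 26.0% of its UMIs. Without the top cell of each library the log2 ratio was 2.00. At 2000 UMIs per cell it was found in 4.57% and 8.48% of interferon-high ECs, and in 0 of 121 and 1 of 76 epithelial cells at the same depth. The 0 of 121 allows a share of up to 2.48%.

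*Cxcl10* (chr5:92346638-92348889), which lies beside *Cxcl9*, was more widely found, in 225 of 485 and 83 of 169 cells. It had 528 and 1118 CPM, a log2 ratio of 1.08 (1.01 to 1.16), beside 0.32 in the other ECs. The ratio was 0.96 without the top cell of each library, and it reversed to −0.13 when cells with *Ptprc*, *Epcam*, *Cspg4* or *Myh11* UMIs were let in. At 2000 UMIs its share of cells was 27.2% and 37.0%, and in epithelial cells it was found in 1 of 121 and 7 of 76. As a mean over single cells of CPM, its log2 ratio was 0.63.

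*Ubd*, a ubiquitin-like protein induced by IFNγ and TNFα (chr17:37193892-37196095), had 45 and 303 CPM, a log2 ratio of 2.75 (2.54 to 2.96) beside 1.20 in other ECs. It was found in 28 of 485 and 27 of 169 cells, 1 of which held 26.3% of the Dnmt1iECKO UMIs. *Cd274* was in 278 and 90 cells and differed by 0.69 (0.56 to 0.83) inside and by −0.04 in other ECs. *Gbp5* was higher by 0.64 (0.54 to 0.73) inside and by 0.27 outside. *Ido1*, the tryptophan-degrading enzyme, had 45.8 and 66.5 CPM (0.54), beside 0.06 in the other ECs.

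As a group, IFNγ effectors had a median log2 ratio of 0.13, and of 20 measured, 11 had an interval above 0 and 2 below. Of all 7888 genes, 12.5% had an interval above 0 and 12.7% below. The median of the IFNγ effectors was 0.38 at a threshold of 3000 CPM and −0.0914 when the 4 excluding genes were not used, so its direction rests on that exclusion. In the other ECs their median was −0.08. Other type I effectors had a median of −0.06, with 5 intervals of 30 above 0 and 11 below, and −0.09 in other ECs. *Trim30a* had 440 and 366 CPM (−0.27), *Rtp4*, a chaperone of receptors, had 269 and 220 (−0.29), and *Slfn5* differed by −0.20. Among the sensors, *Samhd1*, which depletes nucleotides, had 264 and 359 CPM, a log2 ratio of 0.44 (0.32 to 0.57), beside −0.12 in other ECs. *Zbp1* differed by 0.62 (0.42 to 0.81).

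In the signalling group the median was −0.06, and single genes differed both ways. *Irf1* had a log2 ratio of −0.36 (−0.41 to −0.30). *Socs3*, an inhibitor of JAK signalling, had −0.26 (−0.33 to −0.18) inside and 0.21 in other ECs. *Ifnar1* differed by 0.36 (0.09 to 0.62) and *Ifnar2* by −0.04. The immediate early genes had a median of −0.05 inside and 0.23 outside.

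Most antigen presentation genes had higher levels in the Dnmt1iECKO interferon-high ECs. MHC class I genes had a median of 0.17, and of 19, 12 had intervals above 0 and 2 below, against 12.5% and 12.7% of all genes. Their median was 0.0409 when cells were thinned to 2000 UMIs before scoring, and 0.00 in other ECs. *Tap1*, the peptide transporter, had 157 and 224 CPM (0.51, from 0.35 to 0.67), and the immunoproteasome subunit *Psmb8* had 360 and 483 (0.42). *H2-K1* differed by 0.01. MHC class II genes were all above 0, with a median of 0.36 beside 0.25 in other ECs. *Ciita*, their transactivator, had 73.9 and 106 CPM (0.52, from 0.28 to 0.75), beside −0.12 in other ECs.

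**Figure D4:**
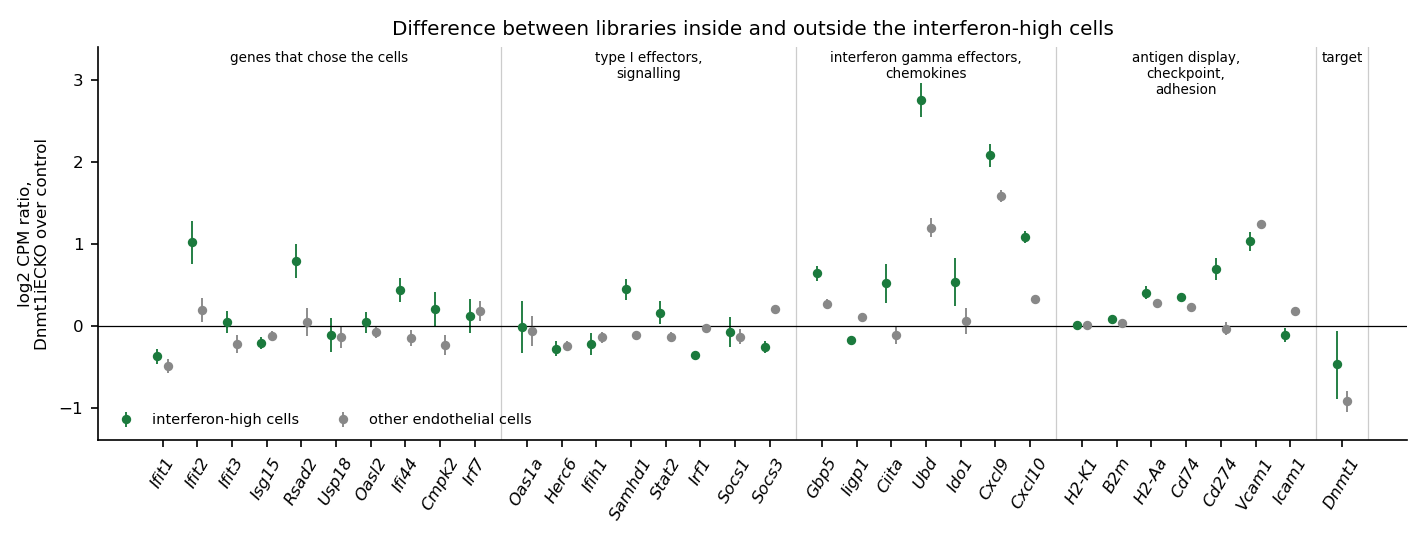
Log2 ratio of Dnmt1iECKO over control CPM for selected rule, interferon, antigen presentation and adhesion genes, inside the interferon-high ECs and in the other ECs, with exact conditional 95% intervals. *Ubd* and *Cxcl9* had ratios of 2.75 and 2.08 inside, and *Ifit1* was below 0 in both groups.

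*Vcam1*, *Selp* and *Sele*, adhesion molecules that slow and hold leukocytes, had higher levels in the Dnmt1iECKO library inside and outside the interferon-high cells. *Vcam1* (chr3:116109949-116129688) had 245 and 501 CPM inside (1.03, from 0.92 to 1.14) and differed by 1.24 outside. *Selp* (P-selectin) had 160 and 389 CPM (1.28) and *Sele* (E-selectin) 27.2 and 62.5 (1.20), beside 1.99 and 1.29 outside. Of the 12 adhesion genes, 10 had enough UMIs, and 8 of these had intervals above 0 and 2 below, against 12.5% and 12.7% of all genes, with a median of 0.25 beside 0.07 outside. The integrin ligand *Icam1* was among the 2, at 745 and 688 CPM (−0.11, from −0.20 to −0.03), beside 0.18 outside. The other was *Icam2*, at −0.16 inside and −0.37 outside. *Vcam1*, *Selp* and *Sele* also mark veins and venules. Without the vein and venule cells counted below, *Selp* had 63.3 and 61.5 CPM inside (−0.04, from −0.36 to 0.26). *Vcam1* then had 116 and 204 CPM (0.82, from 0.63 to 1.01). *Selp* and *Sele* are markers of the venule class, so leaving out these cells in part fixes their levels. Levels of *Vcam1* in single classes are given below, and those of *Sele* were not taken by class. *Cd40*, a co-stimulatory receptor, differed by −0.18 with an interval from −0.46 to 0.08. *Tnfsf4* and *Pdcd1lg2* had 0 UMIs in the interferon-high cells of both libraries.

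The vessel types among the interferon-high ECs were counted from marker lists, with at least 3 markers of a class after each cell had been thinned to 2000 UMIs. Of 481 control and 165 Dnmt1iECKO interferon-high ECs that were deep enough, 70.9% and 64.2% were general capillary (*Gpihbp1*, *Kit* and others), against 47.7% and 47.2% of other ECs. Aerocytes, which the rule set aside, made up 30.9% and 22.3% of the other ECs, so the larger capillary share is in part fixed by the rule. General capillary markers had median log2 ratios of 0.35 and 0.26 over other ECs. Against other ECs with fewer than 3 aerocyte genes these were −0.04 and 0.10. Artery cells were 12.3% and 13.3% of the interferon-high ECs. Vein cells were 7.28% and 7.27% of them but 4.07% and 9.03% of other ECs. Post-capillary venule markers were met by 2 and 2 cells, lymphatic markers by 2 and 1, and proliferation markers by 3 and 4.

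Cells with at least 3 of *Ubd*, *Cxcl9*, *Ido1*, *Gbp4* and *Iigp1* are here called IFNγ-activated. They were 9.98% (7.45 to 13.0) of control and 12.1% (7.56 to 18.1) of Dnmt1iECKO interferon-high ECs, a log2 ratio of 0.28 with an interval from −0.55 to 1.06. When the score was also computed after thinning, the shares were 9.0% (19 of 211) and 21.3% (17 of 80), and the log2 ratio was 1.24 (0.20 to 2.26). In other ECs the shares were 1.93% and 3.85%. The class is chosen by genes that differ between the libraries, so a difference in its share restates part of theirs.

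**Figure D5:**
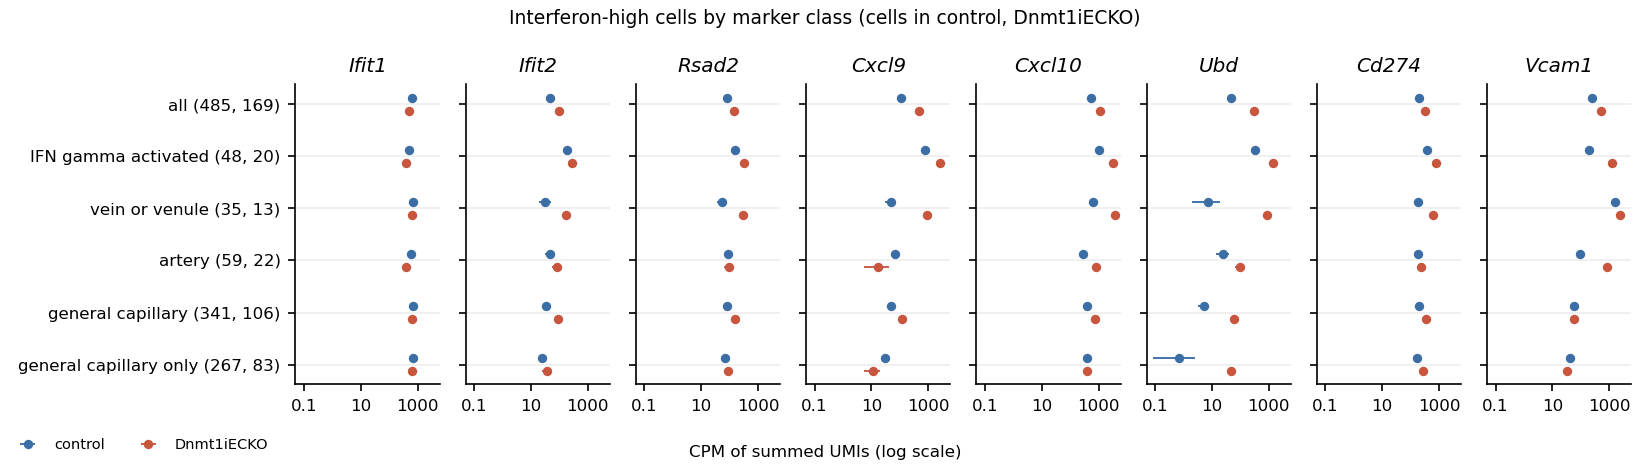
CPM (log axis) of selected genes in classes of interferon-high ECs, control and Dnmt1iECKO as separate points with exact Poisson 95% intervals, and the cells of each class beside its name. In general capillary cells outside the vein, venule, artery and IFNγ-activated classes, *Cxcl10* had 393 and 397 CPM, whereas *Cd274* had 166 and 283.

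*Cxcl9* is one of the genes that define the activated cells, so its values by this class are a description. The 48 control cells held 550 of 656 UMIs and the 20 Dnmt1iECKO cells 1025 of 1089, or 746 and 2546 CPM within the class. Without them the levels were 21.0 and 34.2 CPM, a log2 ratio of 0.70 (0.23 to 1.16). *Cxcl10* then differed by 0.50, *Cd274* by 0.37 and *Vcam1* by 0.47, all above 0. Without the 35 control and 13 Dnmt1iECKO vein and venule cells, *Cxcl9* differed by 1.77 and *Cxcl10* by 0.43.

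Of the 341 control and 106 Dnmt1iECKO general capillary cells, 267 and 83 did not reach 3 markers of the vein, venule, artery or IFNγ-activated classes. They still held some UMIs of these markers. Leaving out cells by *Cxcl9*, *Ubd*, *Selp* and other class markers in part fixes the values of those genes here. *Cxcl9* had 29.5 and 11 CPM, from 85 and 11 UMIs, a log2 ratio of −1.42 (−2.48 to −0.51). *Cxcl10* had 393 and 397 CPM (0.01, from −0.16 to 0.18), and *Vcam1* 42.1 and 33.1 (−0.35, from −0.95 to 0.22). *Cd274* differed here too, with 166 and 283 CPM (0.76, from 0.55 to 0.98), and *Ubd* had 2 and 46 UMIs. *Ifit2* and *Rsad2* had ratios of 0.53 and 0.36 with intervals that reached below 0. In vein and venule cells *Cxcl10* had 627 and 3690 CPM, a log2 ratio of 2.56 (2.38 to 2.74), and *Vcam1* 1524 and 2313 (0.60), from 35 and 13 cells. *Vcam1* had 90.9 and 813 CPM in artery cells (3.16) and 195 and 1200 in IFNγ-activated cells (2.62). In the 80 control and 32 Dnmt1iECKO cells of none of these classes it had 346 and 137 CPM (−1.34, from −1.79 to −0.92). *Cd274* had 189 and 131 CPM in these cells (−0.53), the only one of these classes in which it was lower.

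Most of the largest differences between libraries drew on 1 cell or on hemoglobin genes. Of the 5 highest, *Slpi* had 130 of its 133 Dnmt1iECKO UMIs in 1 cell, and *Ccl21a*, a lymphatic chemokine, had all 520 in 1 cell. *Sema3a* had 90.6% of its UMIs in 1 cell, and *Ubd* was described above. In other ECs *Slpi*, *Ccl21a* and *Sema3a* were lower in the Dnmt1iECKO library, at log2 ratios of −0.58, −0.39 and −0.38. *Gdpd3*, a lysophospholipase D, was spread over 28 control and 68 Dnmt1iECKO cells, at 5.36 and 101 CPM, a log2 ratio of 4.23 (3.69 to 4.82) beside 4.49 in other ECs. Of the 5 lowest, *Hbb-bs*, *Hba-a2*, *Hbb-bt* and *Hba-a1* encode hemoglobin, with 1303, 344, 131 and 506 UMIs in the control and 0, 1, 1 and 11 in the Dnmt1iECKO library. *Hbb-bs* was at least 171-fold lower against a floor of 3 counts in the library, but 71.8% of its control UMIs came from 1 cell. In other ECs the hemoglobin genes were higher in the Dnmt1iECKO library, at log2 ratios of 1.33, 1.40, 1.26 and 1.22. *Tnfaip6* had 102 and 2 UMIs, 83.3% of the control UMIs in 1 cell, and its log2 ratio in other ECs was 1.42.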

How the data were processed

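The deposited values are raw UMI counts per gene and cell of 1 control and 1 Dnmt1iECKO library, which the authors made with Cell Ranger 9.0.1 and the mm10 reference, keeping the barcodes it called as cells and applying no normalization. Multi-mapped reads are dropped by this software, so close paralogs (*Ifit3* and *Ifit3b*, *Apol9a* and *Apol9b*, the *Gbp* and *Tgtp* families) are uncertain. The libraries held 9301 and 9522 barcodes with 123830489 and 141433493 UMIs, and 8021 and 8102 cells passed the limits on detected genes and mitochondrial UMIs.

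For each group of cells in a library the UMIs of a gene were added up and scaled to CPM, with exact Poisson 95% intervals. Shares have exact Clopper-Pearson intervals, and ratios the exact interval conditional on the sum of both counts. A gene counted as higher or lower at a log2 ratio of at least 1 or at most −1, and no test was possible. Doublets were the highest Scrublet scores at 0.4% per 1000 cells, from scanpy 1.11.5, and were left in. Other steps used Python 3.11.15, numpy 2.4.6, scipy 1.17.1, pandas 2.3.3 and matplotlib 3.10.9. The calculation was tested on simulated data.

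Named genes were the 10 rule genes, the genes of the lists, the 10 leading genes outside the rule, and, for the ratio between libraries, the 5 highest and the 5 lowest. Genes in the closing section outside this rule were chosen after their values were seen. The cells and gene lists were chosen with earlier results of these data known, so the lists support nothing by themselves. Promoters are from RefSeq and gene positions from GENCODE on GRCm38. One signalling gene is counted in its list but not reported here.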

Additional observations from a re-analysis of the deposited data

Results flagged for a closer look

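For 8 genes the Dnmt1iECKO over control difference lay on opposite sides of 0 inside the interferon-high ECs and in the other ECs, with both counting intervals clear of 0 and log2 ratios at least 0.4 apart. In all, 23 of 182 response genes lay on opposite sides, from lists that also held the rule, NF-κB, immediate early and pan-endothelial genes. The share of all genes that did so was not counted, so the 23 cannot be called many or few. The difference between the groups of cells was not tested, since each library is 1 sample. Higher inside and lower outside were *Ifi44* (log2 ratio 0.43 inside, −0.15 outside), *Cmpk2*, a mitochondrial nucleotide kinase (0.21 and −0.23), *Samhd1* (0.44 and −0.12), the MHC class II transactivator *Ciita* (0.52 and −0.12) and the sialomucin *Cd34* (0.27 and −0.25). Lower inside and higher outside were the JAK inhibitor *Socs3* (−0.26 and 0.21) and the immediate early transcription factors *Junb* (−0.23 and 0.19) and *Egr1* (−0.0485 and 0.39). *Ifi44* and *Cmpk2* were among the genes that chose the cells.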

How the results depend on the processing

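No paired analysis was possible because each condition had 1 library. The share of interferon-high ECs depended on the rule, with 14.5% (control) and 13.2% (Dnmt1iECKO) at a threshold of 1000 CPM, 3.49% and 2.60% at 3000, 6.62% and 6.11% with at least 6 rule genes, 13.1% and 9.82% without the limit on aerocyte genes, and 4.62% and 4.20% after thinning. Without the exclusion by *Ptprc*, *Epcam*, *Cspg4* and *Myh11*, the Dnmt1iECKO share was 6.32% and the log2 ratio of the shares −0.58, and it stayed below 0 under each alternative run. Inside the cells, 100 genes were at least 2-fold higher in the Dnmt1iECKO library, and 187 at a threshold of 1000, 47 at 3000, 646 without the exclusion, 66 after thinning and 58 without the top cell of each library. The 60 lower genes became 247 without the exclusion and 39 after thinning. The MHC class I median of 0.17 was 0.0409 after thinning. The IFNγ effector median of 0.13 was 0.38 at a threshold of 3000 and reversed to −0.0914 without the exclusion. Of named genes, *Cmpk2* reversed to −0.0016 at a threshold of 1000 and to −0.0909 without the exclusion, and *Cxcl10* to −0.13 without the exclusion. *Cxcl9* and *Vcam1* reversed to −1.42 and −0.35 in general capillary cells outside the vein, venule, artery and IFNγ-activated classes. The cause was not tested. Settings that left out classes or the top cell were chosen after seeing the data. Few cells limit genes found in under 20 cells, 44 of the 100.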

Other observations

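Some genes differed between the libraries in many interferon-high ECs and in other ECs alike, and were chosen after their values were seen. *Cyp1a1*, a cytochrome P450 induced through the aryl hydrocarbon receptor, had 138 CPM in control and 22 in Dnmt1iECKO interferon-high ECs, a log2 ratio of −2.65 (−3.09 to −2.24), beside −2.59 in other ECs. *Cyp4b1*, a cytochrome P450 abundant in lung, had 283 and 81.9 CPM (−1.79), beside −1.11. *Rpl29*, a ribosomal protein gene, had 668 and 141 CPM, from 3862 and 320 UMIs (−2.25), beside −2.20 in other ECs.

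*Ifi208*, a member of the interferon-inducible p200 family, differed more between the libraries than the 3 other members given here. It had 346 UMIs in 203 control cells and 10 in the Dnmt1iECKO interferon-high ECs, or 59.9 and 4.4 CPM, a log2 ratio of −3.77 (−4.84 to −2.87), beside −1.56 in other ECs. *Ifi203* differed by −0.24, *Ifi204* by 0.21 and *Ifi213* by −0.11 in the same cells. These genes lie in 1 family with similar sequences, and reads shared among members were not counted.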
